A study of Mus musculus with 6 samples.

Results

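The genes described here encode the lower tiers of the ERK cascade and its best known feedback inhibitors: the kinase ERK1 (*Mapk3*), both MEK kinases (*Map2k1* and *Map2k2*), the phosphatases *Dusp1*, *Dusp4* and *Dusp6*, and the Sprouty adaptors *Spry1*, *Spry2* and *Spry4*. They were chosen by name, and 8 of the 9 were found among the 11234 genes measured. *Spry1* was not analysed here. The cells were MC3T3-E1, an established line of bone-forming precursors from the skull of the mouse (strain labelled C57BL/6), at passage 4. All cells were held in serum-free medium for 24 h and then returned to complete medium with 10% fetal bovine serum for 24 h. This medium held 100 μmol/L C3G (cyanidin-3-O-glucoside, a plant pigment of the anthocyanin class) for 3 libraries and no C3G for the 3 control libraries. The dose is given here in the unit of the study's methods, since the label abbreviates it. The sources do not say whether the libraries of a group came from separate cultures, so p values measure the spread between these libraries, which may be technical.

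The ERK cascade carries signals from growth factor receptors through RAS and RAF to MEK, and MEK activates ERK by phosphorylating a threonine and a tyrosine in it. In preosteoblasts the cascade is driven by fibroblast and platelet-derived growth factors and by matrix adhesion, and it acts on proliferation and on the osteoblast factor Runx2. ERK activity also raises transcription of its own inhibitors: dual-specificity phosphatases (DUSPs) remove phosphate from ERK, and Sprouty proteins act between the receptors and RAF. Because the inhibitors are made in response to ERK activity, their mRNA is often read as a sign of it, although mRNA measures neither the phosphorylation of ERK nor the activity of a kinase.

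The authors deposited 1 FPKM value per gene and library, that is, fragments scaled by transcript length and by the mapped fragments in total. The depth of the libraries is unknown. Control replicate 1 stood apart from the other 5 libraries (across genes, which are no independent replicates, Pearson's r on the log2 scale was 0.886 to 0.939 with them and at least 0.968 among them), and its departure from the other controls rose with transcript GC content (Spearman's rho across genes 0.748). The same held for C3G replicate 1 within the C3G group (rho 0.631). Of 11 preosteoblast markers, 8 were found, without *Ibsp*, *Bglap* and *Alpl*. *Col1a1* had 4432 FPKM in control replicate 1 and 923 to 1478 FPKM in the other 5 libraries. *Col1a2*, *Sparc* and *Twist1* were also highest in control replicate 1. *Runx2* had 5.46 to 9.07 FPKM and was lowest in control replicate 1, as were *Spp1* and *Postn*. The later marker *Sp7* had 0.237 to 0.857 FPKM. No listed marker of endothelial cells or adipocytes was found among the genes analysed. *Cd68* and *Lyz2*, 2 of 6 macrophage markers, summed to 32.3 to 41.0 FPKM in the control libraries and 45.8 to 55.5 FPKM in the C3G libraries, with *Cd68* between 0.144 and 1.25 FPKM and the rest from *Lyz2*, which was called higher with C3G by the thresholds below. The other 4 listed macrophage markers were not found among the genes analysed. Of 4 epithelial markers 2 were found, without *Epcam* and *Krt5*. *Krt14* had 149 FPKM in control replicate 1 and 71.6 to 102 FPKM in the others, and *Cdh1* had 0.524 to 1.37 FPKM. Of 4 skeletal muscle markers only *Des* was found, at 0.715 to 1.63 FPKM, without *Myod1*, *Myog* and *Ckm*. What these markers contribute to the values below was not tested.

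The question was whether 24 h with C3G was accompanied by a different mRNA level of the cascade or of its inhibitors. Differences were tested with limma on log2(FPKM + 1) over all genes, and a gene was called where the two-sided unadjusted p was under 0.05 and the change at least 1.2-fold. Of the 8 genes, 0 passed these thresholds, where 0.650% of all genes did (73 of 11234). With Benjamini-Hochberg adjustment the limma p was at least 0.992 for each of the 8, and 0 of all genes passed. At an unadjusted limma p under 0.05 the counts were 0 of the 8 and 74 of all genes. Without control replicate 1, 0 of the 8 and 144 of all genes were called. The groups overlapped in all 8 genes, whereas 4.02% of all genes had groups that did not overlap. The log2 fold change (C3G minus control) lay between -0.30 in *Map2k2* and 0.27 in *Dusp1*, with a median of 0.0095, against 0.057 over all genes. It was above 0 in 4 of the 8 genes and in 62.0% of all genes. In 6 of the 8 the estimate was within 1.2-fold, as in 77.7% of all genes.

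**Figure D1:**
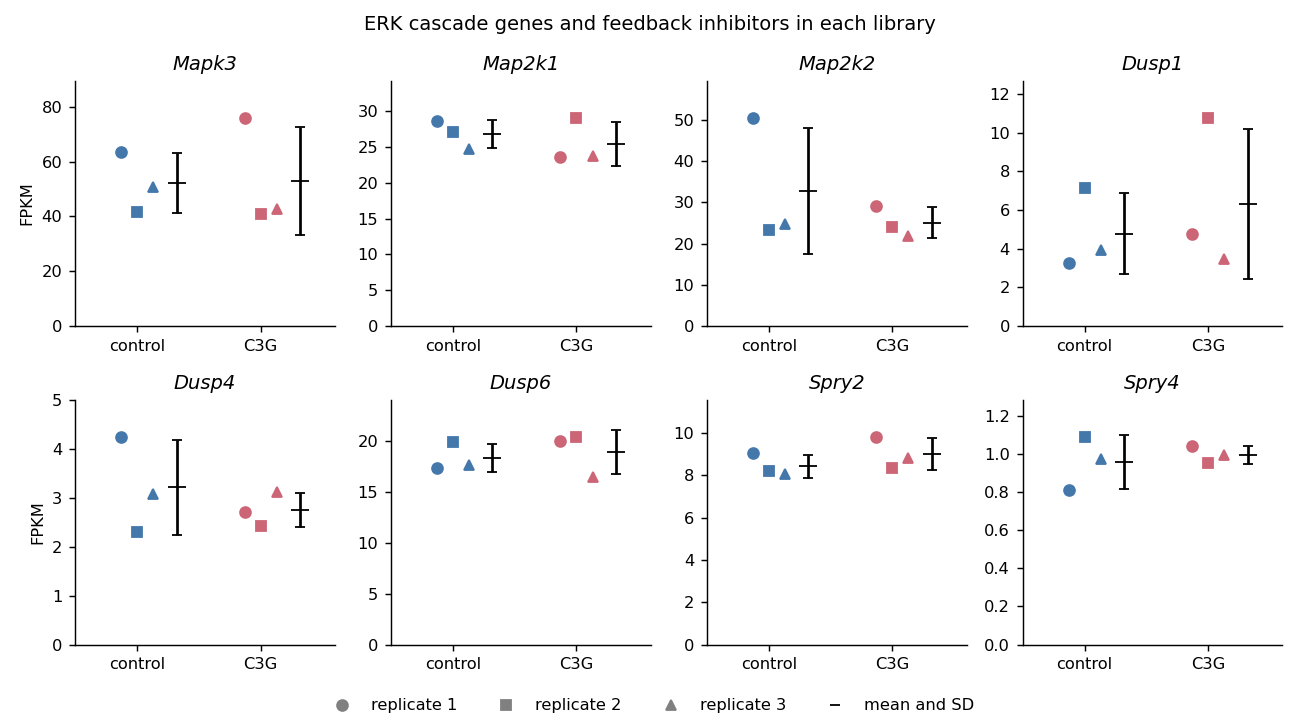
FPKM of the 8 genes (vertical axes, from 0) in the control and C3G libraries, with 1 point per library, a symbol for each replicate number, and bars for the group mean and SD (n = 3). Replicate 1 was high in both groups for *Mapk3* and replicate 2 was high in both for *Dusp1*, and in each of the 8 panels the groups overlap.

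A p value over the threshold does not show that the levels were the same, so the precision is given by the 95% limma interval of each difference. In 4 genes the whole interval lay within 1.5-fold in either direction, as in 38.1% of all genes. These were *Map2k1* (0.731 to 1.23-fold of the control level), *Dusp6* (0.794 to 1.34-fold), *Spry2* (0.827 to 1.36-fold) and *Spry4* (0.836 to 1.25-fold). Folds are on the scale of FPKM + 1, which makes the change of weakly expressed genes look smaller, most of all that of *Spry4*. The interval was wider in *Dusp4* (0.643 to 1.27-fold), *Mapk3* (0.619 to 1.59-fold) and *Map2k2* (0.487 to 1.36-fold), and widest in *Dusp1* (0.614 to 2.39-fold). These intervals leave out that libraries of the same number departed together. With the replicate number as a block the interval lay within 1.5-fold for 6 of the 8 genes, as for 58.5% of all genes. It was then widest in *Map2k2* (0.575 to 1.15-fold), followed by *Dusp1* (0.876 to 1.67-fold), and that of *Mapk3* was 0.762 to 1.29-fold.

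**Figure D2:**
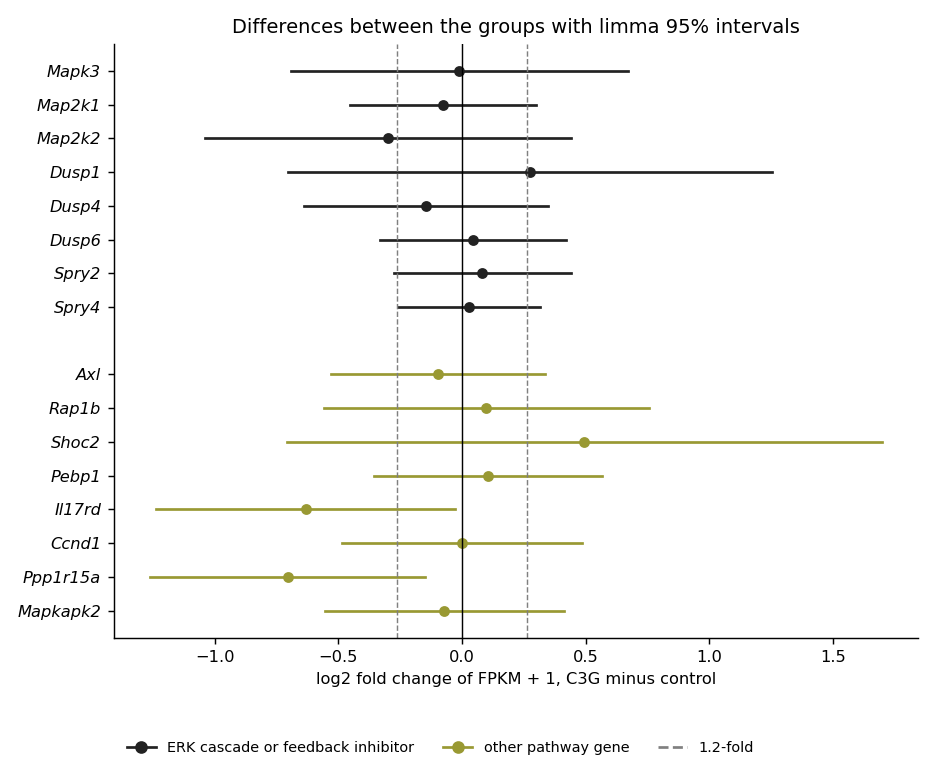
Log2 fold change of FPKM + 1 (horizontal axis, C3G minus control) with its limma 95% interval for the 8 genes (black) and for other genes of the pathway (olive), beside dashed lines at 1.2-fold. All 8 black intervals cross 0, while those of *Il17rd* and *Ppp1r15a* do not.

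*Mapk3* (ENSMUSG00000063065.13, chromosome 7 of GRCm38, 126759601 to 126765819, plus strand) encodes ERK1, the last kinase of the cascade. It was the most abundant of the 8 genes per length, with 63.5, 41.7 and 50.8 FPKM in control libraries 1 to 3, against 75.8, 40.7 and 42.7 FPKM in C3G libraries 1 to 3. Values per library follow this order throughout. The libraries numbered 1 were the highest of their groups, and C3G replicate 1 was the highest of all 6. The group means were 52.0 ± 10.9 FPKM (SD, n = 3) without C3G and 53.1 ± 19.7 FPKM (SD, n = 3) with it. The difference of log2(FPKM + 1) was -0.0099 ± 0.287 (SE, limma p = 0.973, exact permutation p = 1), far smaller than the spread between libraries. Its direction depended on the libraries used: without control replicate 1 the log2 fold change was 0.14, and without C3G replicate 1 it was -0.29.

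*Map2k1* (ENSMUSG00000004936.8, chromosome 9, 64185770 to 64253631, minus strand) encodes MEK1. It had 28.6, 27.0 and 24.7 FPKM among controls, against 23.5, 29.0 and 23.8 FPKM under C3G. All 6 libraries lay within a factor of 1.23, and the log2 difference was -0.08 ± 0.158 (SE, limma p = 0.644, exact permutation p = 0.6). *Map2k2* (ENSMUSG00000035027.18, chromosome 10, 81105915 to 81133975, plus strand) encodes MEK2. It had 50.4, 23.2 and 24.8 FPKM among controls, against 29.2, 23.98 and 21.9 FPKM under C3G. Control replicate 1 was the highest library, and the other 5 lay between 21.9 and 29.2 FPKM. The group means were 32.8 ± 15.3 FPKM (SD, n = 3) without C3G and 25.1 ± 3.76 FPKM (SD, n = 3) with it. The log2 difference was -0.30 ± 0.311 (SE, limma p = 0.372, exact permutation p = 0.6), and without control replicate 1 it was 0.05.

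The departure of control replicate 1 from the mean of the other controls was 1.04 on the log2 scale in *Map2k2*, whose longest transcript has a GC content of 60.4%. It was 0.46 in *Mapk3* (57.6% GC), 0.51 in *Dusp4* (56.0% GC) and 0.14 in *Map2k1* (51.2% GC), but below 0 in *Dusp1* (-0.57 at 54.0% GC) and *Spry4* (-0.17 at 51.2% GC), so the 8 genes did not all depart with their GC content. In *Dusp6* (49.0% GC) it was -0.11 and in *Spry2* (46.2% GC) 0.14. The median GC content over all genes was 49.6%. When each library was corrected for GC content, the departure of *Map2k2* fell to 0.34 and its SD within groups fell from 0.449 to 0.150 on the log2 scale. The log2 fold change of *Map2k2* was then -0.14, still short of the thresholds. In *Mapk3* the SD within groups went from 0.405 to 0.260, and the log2 fold change was 0.076. The correction did not narrow the spread in every gene, and in *Spry2* the SD rose from 0.0948 to 0.307. In *Dusp1* the departure became -0.76 and the SD went from 0.619 to 0.675.

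FPKM is per length, so related genes were compared within a library, but FPKM takes no account of GC content. The GC content was 60.4% in *Map2k2* and 51.2% in *Map2k1*, and what it contributes to their ratio was not tested. The ratio of *Map2k2* to *Map2k1* was 1.76, 0.860 and 1.00 among controls, against 1.24, 0.828 and 0.924 under C3G (difference of the mean log2 ratios -0.23, exact permutation p = 0.6). The libraries numbered 1 had the highest ratio of their groups, and the groups overlapped. In the other 4 libraries the ratio was between 0.828 and 1.00, so that both genes were close to each other per length.

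**Figure D3:**
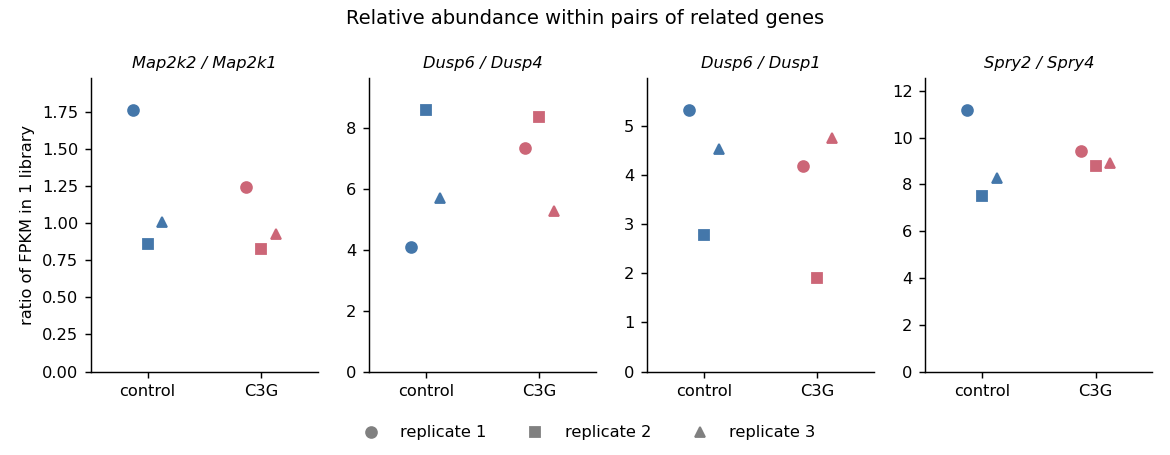
Ratio of the FPKM of related genes within each library (vertical axes, from 0), with 1 point per library and a symbol for each replicate number. Control replicate 1 was the highest library for *Map2k2* over *Map2k1* (1.76), and the groups overlap in each of the 4 panels.

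*Dusp6* (ENSMUSG00000019960.8, chromosome 10, 99263231 to 99267489, plus strand) encodes a cytoplasmic phosphatase that is selective for ERK and is widely used as a readout of ERK activity. It was the most abundant inhibitor of the 8 genes, at 17.3, 19.9 and 17.7 FPKM among controls, against 19.96, 20.4 and 16.4 FPKM under C3G. All 6 libraries lay within a factor of 1.24, and neither group was set apart. The group means were 18.3 ± 1.38 FPKM (SD, n = 3) and 18.9 ± 2.16 FPKM (SD, n = 3), and the log2 difference was 0.04 ± 0.158 (SE, limma p = 0.791, exact permutation p = 0.8). Within its groups the SD was 0.135 on the log2 scale, at percentile 15.1 of all genes.

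*Dusp1* (ENSMUSG00000024190.6, chromosome 17, 26505590 to 26562128, minus strand) encodes a nuclear phosphatase of ERK, JNK and p38 and is an immediate early gene. It had 3.26, 7.15 and 3.91 FPKM among controls, against 4.77, 10.7 and 3.46 FPKM under C3G. The libraries numbered 2 were the highest in both groups, and the other 4 lay between 3.26 and 4.77 FPKM. The group means were 4.77 ± 2.08 FPKM (SD, n = 3) without C3G and 6.32 ± 3.88 FPKM (SD, n = 3) with it. The log2 difference was 0.27 ± 0.412 (SE, limma p = 0.526, exact permutation p = 0.6), and without C3G replicate 2 it was -0.13. Within pairs of libraries of the same replicate number the difference was 0.44, 0.53 and -0.14 on the log2 scale for replicates 1, 2 and 3. Its SD within groups was 0.619 on the log2 scale, at percentile 90.8 of all genes, against 15.1 for *Dusp6*. The exons of *Dusp1* overlap those of *Ergic1* on the opposite strand, and reads of the 2 genes cannot be told apart where the counting ignored strand, which is not stated. The positions are those of GENCODE M21, where the identifier carries a later version.

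The high libraries of *Dusp1* were compared with 3 immediate early genes of the list of ERK substrates and targets, which were chosen after their values were seen. *Fos*, a subunit of AP-1, had 0.751, 0.900 and 0.639 FPKM among controls, against 0.776, 4.84 and 0.377 FPKM under C3G. *Egr1*, a zinc finger factor, had 1.62, 2.13 and 2.69 FPKM among controls, against 3.94, 8.20 and 2.41 FPKM under C3G. *Ier3* had 6.00, 11.3 and 9.94 FPKM among controls, against 8.68, 18.2 and 8.98 FPKM under C3G. C3G replicate 2 was the highest of the 6 libraries in all 4 genes, which is how they were chosen. Over the whole list C3G replicate 2 was the highest library in 8 of 29 genes and control replicate 1 in 8 of 29, against 12.7% and 28.6% of all genes. *Fosb* and *Fosl1*, also AP-1 subunits, were highest in control replicate 1 and control replicate 2. Control replicate 2 was the highest control in *Dusp1*, *Fos* and *Ier3* but not in *Egr1*. The difference between the groups passed the thresholds in 0 of the 4 genes. It was largest in *Egr1* (log2 difference 0.78 ± 0.364, SE, limma p = 0.0692, exact permutation p = 0.2), which was called higher without C3G replicate 3 (log2 difference 1.11) and had a log2 difference of 0.40, not called, without C3G replicate 2.

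**Figure D4:**
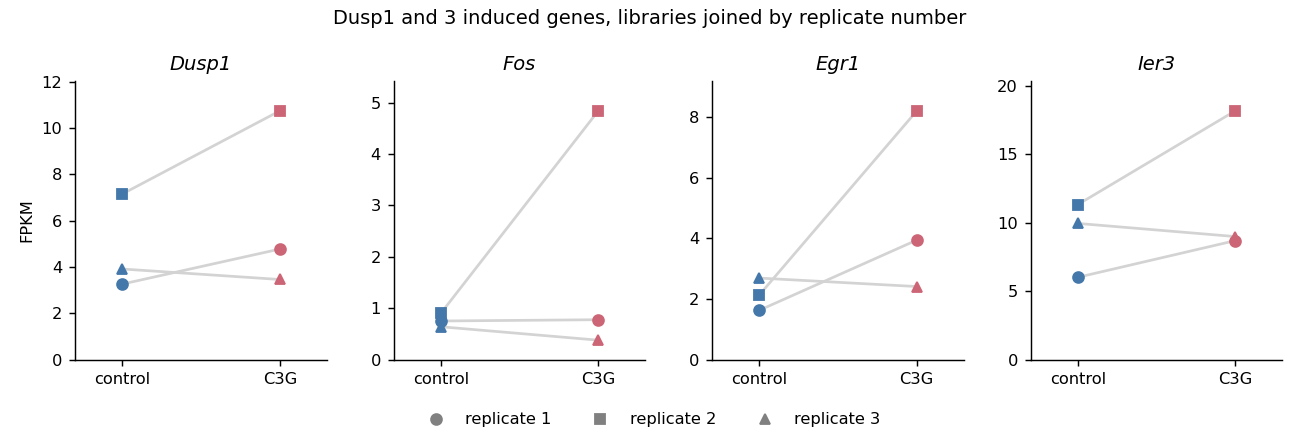
FPKM of *Dusp1*, *Fos*, *Egr1* and *Ier3* (vertical axes, from 0) in control and C3G libraries, with grey lines that join libraries of the same replicate number. C3G replicate 2 is the highest point of each panel, and replicate 3 was lower with C3G than without it in all 4.

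The sequences upstream of *Dusp1* and *Dusp6* are shown because these phosphatases had the widest and the narrowest spread between libraries among the 3 phosphatases. They are RefSeq promoter sequences of GRCm38.p6, a build whose coordinates are those of GRCm38, cut to the longest stretch outside annotated exons within 250 bases of the start. The RefSeq start of *Dusp1* lies inside its longer GENCODE gene. In *Dusp1* the capitals mark the cAMP response element TGACGTCA, at positions -143 to -136 from the start. In *Dusp6* they mark a CCAAT box on the reverse strand, at positions -46 to -42.
*Dusp1*, chr17:26508520-26508722, minus strand: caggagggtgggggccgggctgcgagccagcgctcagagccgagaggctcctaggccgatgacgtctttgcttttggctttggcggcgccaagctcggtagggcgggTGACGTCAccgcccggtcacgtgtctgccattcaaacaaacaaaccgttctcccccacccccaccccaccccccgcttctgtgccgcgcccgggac
*Dusp6*, chr10:99262981-99263230, plus strand: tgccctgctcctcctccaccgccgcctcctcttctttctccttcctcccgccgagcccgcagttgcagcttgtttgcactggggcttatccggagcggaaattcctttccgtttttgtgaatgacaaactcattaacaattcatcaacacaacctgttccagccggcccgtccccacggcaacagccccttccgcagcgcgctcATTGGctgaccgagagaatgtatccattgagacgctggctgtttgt
Promoter sequences matched 5 of the 8 genes. Within 250 bases upstream of the start, on either strand, TGACGTCA occurred in *Dusp1* and in 0 of the other 4, against 1.55% of 32851 promoters. CCAAT occurred in *Dusp6* and *Map2k1*, against 33.8% of all promoters. The GC box GGGCGG occurred 3 times in *Dusp1*, 4 times in *Map2k1* and 1 time in *Map2k2*, and at least 1 time in 32.7% of all promoters. The AP-1 site TGANTCA (6.75% of all promoters), the CArG box (1.47%), the Egr site GCGTGGGCG (0.536%) and the TATA box TATAAA (12.4%) were not found in these windows of the 5 genes. A match is a run of letters and was not tested as a binding site.

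*Dusp4* (ENSMUSG00000031530.6, chromosome 8, 34807297 to 34819894, plus strand) encodes a nuclear phosphatase that is induced by ERK activity. It was low, at 4.25, 2.31 and 3.09 FPKM among controls, against 2.71, 2.43 and 3.11 FPKM under C3G. Control replicate 1 was the highest library, and the C3G libraries lay inside the range of the controls. The log2 difference was -0.15 ± 0.207 (SE, limma p = 0.506, exact permutation p = 0.7), and without control replicate 1 it was 0.03. *Dusp6* exceeded *Dusp4* in all 6 libraries, by 4.08 to 8.61-fold in FPKM, and exceeded *Dusp1* in all 6, by 1.90 to 5.32-fold. The log2 ratio of *Dusp6* to *Dusp4* differed by 0.23 between the groups and that of *Dusp6* to *Dusp1* by -0.27 (exact permutation p = 0.7 and p = 0.6).

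*Spry2* (ENSMUSG00000022114.5, chromosome 14, 105891947 to 105896819, minus strand) encodes a Sprouty adaptor that inhibits receptor signalling to RAS and RAF. It had 9.04, 8.18 and 8.06 FPKM among controls, against 9.81, 8.34 and 8.83 FPKM under C3G. C3G was the higher library in each of the 3 pairs of the same replicate number, by 0.11, 0.03 and 0.12 on the log2 scale, yet the groups overlapped. The means were 8.43 ± 0.535 FPKM (SD, n = 3) without C3G and 8.995 ± 0.749 FPKM (SD, n = 3) with it, which is a log2 difference of 0.08 ± 0.150 (SE, limma p = 0.598, exact permutation p = 0.4). After the GC correction the log2 fold change was -0.037. *Spry4* (ENSMUSG00000024427.6, chromosome 18, 38586247 to 38601415, minus strand), another Sprouty adaptor, was the least abundant of the 8 genes, at 0.808, 1.09 and 0.974 FPKM among controls, against 1.04, 0.950 and 0.992 FPKM under C3G. The positions of *Spry4* are those of GENCODE M21, where the identifier carries a later version. Its C3G libraries lay inside the range of the controls. The log2 difference was 0.03 ± 0.121 (SE, limma p = 0.818, exact permutation p = 0.8), and its sign turned when libraries were quantile normalized, median centred or corrected for GC content. *Spry2* exceeded *Spry4* by 7.51 to 11.2-fold in FPKM, and the log2 ratio differed by 0.03 between the groups (exact permutation p = 1).

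By mean FPKM over the 6 libraries the order of the levels was *Mapk3* (52.5), *Map2k2* (28.9), *Map2k1* (26.1), *Dusp6* (18.6), *Spry2* (8.71), *Dusp1* (5.55), *Dusp4* (2.98) and *Spry4* (0.976). *Mapk3* exceeded *Map2k2* in each of the 6 libraries, although their ranges overlapped. *Map2k2* and *Map2k1* were not ordered, since each was the higher gene in 3 of 6 libraries. The ranges were separate between *Map2k1* and *Dusp6*, between *Dusp6* and *Spry2* and between *Dusp4* and *Spry4*. *Spry2* exceeded *Dusp1* in 5 of 6 libraries, and *Dusp1* exceeded *Dusp4* in 5 of 6. All 3 kinase genes were above every inhibitor in every library. Among all 11234 genes the level of *Mapk3* was at percentile 92.9, that of *Dusp6* at 77.3 and that of *Spry4* at 6.53.

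The other genes of the pathway were read from 6 lists that hold 121 genes, of which 111 were found. In these lists 0 genes passed the thresholds as higher with C3G and 2 as lower, against 0.401% and 0.249% of all genes in these directions. After Benjamini-Hochberg adjustment of the limma p, 0 of the 111 passed. The list of receptors and ligands had 0 of 18 genes past the thresholds, with a median log2 fold change of 0.09. The list of adaptors, exchange factors and RAS proteins had 0 of 17 (median 0.09), that of RAF, other kinases of the cascade and scaffolds 0 of 10 (median 0.21), and that of the parallel MAP kinase modules 0 of 14 (median 0.06). The list of other inhibitors had 1 of 23, which was lower with C3G (median 0.11), and the list of ERK substrates and induced targets 1 of 29, also lower (median 0.03). The genes with groups that did not overlap were *Fgf18* and *Lamtor3*, higher with C3G, and *Ppp1r15a* and *Mapk11*, lower with C3G. These are 2 of the 111 in each direction, against 2.55% of all genes higher and 1.48% lower without overlap. Naming *Fgf18*, *Lamtor3*, *Mapk11* and, under the block, *Fosl1* was a choice made with their values known.

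The inhibitor past the thresholds was *Il17rd*, which encodes Sef, a transmembrane inhibitor of fibroblast growth factor signalling. It had 2.95, 3.65 and 1.43 FPKM among controls, against 1.09, 1.32 and 1.47 FPKM under C3G. Control replicates 1 and 2 were high, while control replicate 3 lay among the C3G libraries. The log2 difference was -0.63 ± 0.254 (SE, limma p = 0.0429, adjusted p = 0.992, exact permutation p = 0.2). With any 1 of 5 libraries left out the call was lost, with a limma p of 0.0715 and a log2 difference of -0.55 without control replicate 1, 0.130 and -0.44 without control replicate 2, 0.121 and -0.57 without C3G replicate 1, 0.0915 and -0.64 without C3G replicate 2, and 0.0735 and -0.69 without C3G replicate 3. Without control replicate 3 the difference was -0.90 and the gene was called. The target past the thresholds was *Ppp1r15a*, a stress-induced regulator of protein phosphatase 1, with 15.1, 8.69 and 8.89 FPKM among controls, against 5.98, 6.65 and 5.67 FPKM under C3G. All 3 C3G libraries lay below the controls, among which control replicate 1 was high. Here the log2 difference was -0.70 ± 0.234 (SE, limma p = 0.0204, adjusted p = 0.992, exact permutation p = 0.1, the smallest this design allows). The difference was smaller without control replicate 1 (-0.47) and in replicates 2 and 3 alone (-0.45), where it was still called. The call held in 13 of 15 alternatives. It was lost without C3G replicate 1 (-0.69) or C3G replicate 3 (-0.66), where the limma p was 0.0564 and 0.0672 (exact permutation tests not repeated). The paper also lists *Ppp1r15a* among its lower genes from these libraries. By quantitative real-time PCR the paper reports no significant difference in this gene. With the replicate number as a block 1 more gene was called, *Fosl1*, an AP-1 subunit. It had 19.6, 24.9 and 17.2 FPKM among controls, against 13.1, 22.2 and 12.99 FPKM under C3G. *Fosl1* was thus lower with C3G in 3 of 3 pairs although the groups overlapped (log2 difference -0.36, limma p with the block 0.0456, adjusted p = 0.794). The exact permutation test, which ignored the pairs, gave p = 0.3. With the GC correction added to the block *Fosl1* fell short of 1.2-fold (log2 difference -0.25). It was also called without C3G replicate 2, where the log2 difference was -0.60.

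The most abundant gene of each list did not pass the thresholds. These were *Axl*, a receptor tyrosine kinase (88.9 ± 9.16 FPKM without C3G and 83.6 ± 13.04 FPKM with it, SD, n = 3), and *Rap1b*, a RAS-related GTPase (76.6 ± 24.6 and 79.2 ± 8.64 FPKM, SD, n = 3). *Shoc2*, a scaffold that promotes RAF activation, had 12.4 FPKM in control replicate 1 and 34.2 to 49.0 FPKM in the other 5 libraries. *Pebp1*, an inhibitor of RAF signalling to MEK, had 156 ± 5.23 FPKM (SD, n = 3) without C3G and 170 ± 35.1 FPKM (SD, n = 3) with it. *Ccnd1*, the cyclin through which ERK acts on the cell cycle, had 125 ± 17.8 FPKM (SD, n = 3) in control cells and 126 ± 23.3 FPKM (SD, n = 3) with C3G. *Mapkapk2*, a kinase downstream of p38, had 41.9 ± 9.20 and 39.5 ± 4.81 FPKM (SD, n = 3).

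Among the 5 genes (mean of at least 1 FPKM) whose log2(FPKM + 1) followed that of *Dusp6* most closely over the 6 libraries were *Eno3* (Pearson's r = 0.980), *Mt2* (0.975), *Gmppa* (0.970) and *Socs7* (0.963). These values describe the closest of many genes over few libraries. The points share their replicate numbers in pairs.

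**Figure D5:**
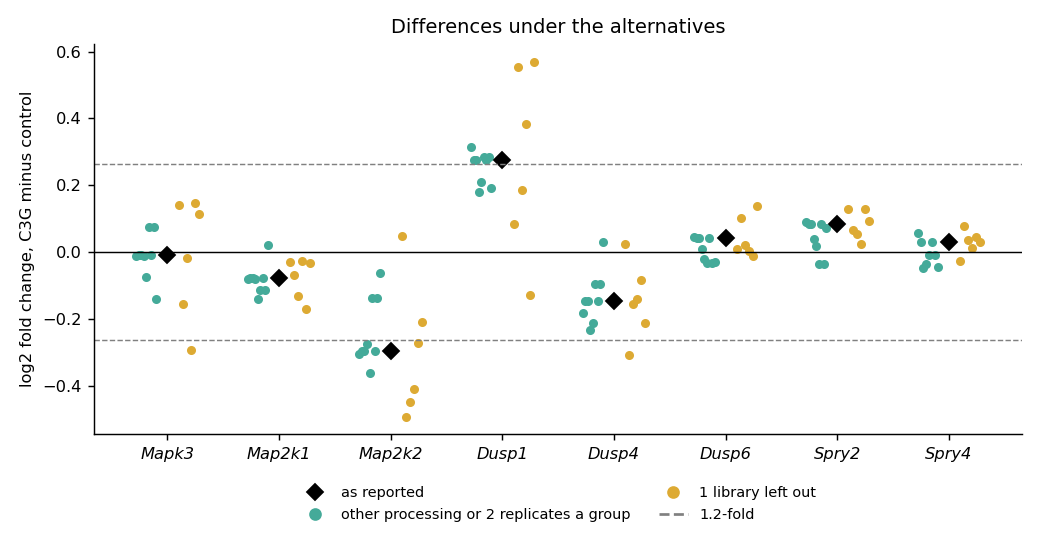
Log2 fold change of each of the 8 genes (vertical axis, C3G minus control) as reported (black), under other processing or with replicates 2 and 3 alone (green) and with 1 library left out (yellow), beside dashed lines at 1.2-fold. *Dusp1* moved most when a library was left out, from -0.13 to 0.57, and *Spry4* stayed between -0.05 and 0.08.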

How the data were processed

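RNA-seq of stranded libraries from 3 control and 3 C3G-treated MC3T3-E1 libraries was analysed. The deposited FPKM values were calculated by the authors with Ballgown, and the submitters' processing notes also name cutadapt, HISAT2 2.1.0, StringTie and STAR 2.5.2b without their roles, and a human build (hg19) that the mouse gene identifiers contradict. The mouse build, annotation and handling of strand are not given in the sources used here. Low values showed no common step, so depth is unknown and no counting error can be given.

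Identifiers were matched to symbols for 11211 of 11234 genes, and positions, GC content and exon overlaps were taken from GENCODE M21 (GRCm38). The higher group mean was 0.5002 FPKM or more for all genes, so the files appear to have been filtered on it. For each of the 8 genes, 0% of the 75-base stretches of the longest transcript occurred in transcripts of other genes. limma 3.58.1 (R 4.3.3) fitted group to log2(FPKM + 1) over all genes with eBayes and a trend. It was first run on simulated data with independent noise in each library. Such data cannot show how the fit handles departures by replicate number or GC content. Exact permutation tests were two-sided and ignored the replicate numbers, and 3 against 3 libraries cannot give a p below 0.1. The labels give both groups the numbers 1 to 3. Deviations from the group means correlated between libraries of one number (r = 0.653, 0.580 and 0.440 across genes), so the pairing was modelled as a replicate block in an alternative. They also correlated between replicate 2 of one group and replicate 3 of the other (r = 0.307 and 0.300). Between replicate 1 of one group and replicates 2 or 3 of the other r was -0.640 to -0.410. Numbers 2 and 3 were thus less clearly separate pairs than number 1. The genes, the pathway lists and the tests were chosen with earlier results of these data known. Genes named are the 8, the most abundant gene and those past the thresholds of each list, the closest to *Dusp6*, and those said to be chosen later, and some genes the rule names are not reported here. Alternatives comprised a smaller pseudocount (0.1), removal of genes under a mean FPKM of 1, limma without the trend, quantile normalization, median centring, a GC correction (natural spline, 5 degrees of freedom), the block with and without it, leaving out each library, and replicates 2 and 3 only.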

Additional observations from a re-analysis of the deposited data

How the results depend on the processing

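Of the 8 genes, 0 passed the thresholds under each of the 15 alternatives, where the lowest limma p was 0.130 (*Dusp1* with the replicate block and GC correction). Over all genes 73 were called as reported, 135 after GC correction, 169 with the replicate block, 246 with both, 191 in replicates 2 and 3 alone, and 40 to 144 with 1 library left out, with 0 passing after adjustment in each. The split of higher and lower calls was 45 to 28 as reported, 30 to 30 under quantile normalization and 67 to 68 after GC correction. In the pathway lists 2 genes were called as reported, 4 with the replicate block and GC correction (*Egr1* and *Fgf18* added, both higher) and 0 to 4 with 1 library left out. *Fgf18* was also called higher after GC correction alone (0.47) and without C3G replicate 2 (0.54), *Fosb* was called higher without control replicate 1 and in replicates 2 and 3 alone (0.36 in both), and *Crk* was called lower without C3G replicate 2 (-0.55). *Il17rd* was also lost in replicates 2 and 3 alone (p = 0.168 by limma, an exact permutation test was not run). The replicate block changed no call among the 8 genes, and in the lists it added *Fosl1*, which fell short of 1.2-fold with the GC correction added.
Estimates of genes that were not called changed sign as follows, and the cause was not tested. GC correction, with the replicate block as without it, gave log2 fold changes of 0.076 for *Mapk3*, -0.033 for *Dusp6*, -0.037 for *Spry2*, -0.0089 for *Spry4*, -0.14 for *Rap1b* and 0.016 for *Mapkapk2*. Median centring gave -0.022 for *Dusp6* and -0.037 for *Spry4*, and quantile normalization gave -0.049 for *Spry4* and 0.027 for *Ccnd1*. Replicates 2 and 3 alone gave 0.021 for *Map2k1*, 0.032 for *Dusp4*, -0.031 for *Dusp6*, -0.043 for *Spry4*, -0.11 for *Rap1b*, -0.078 for *Pebp1*, 0.024 for *Ccnd1* and 0.030 for *Mapkapk2*. With 1 library left out the range was -0.29 to 0.15 for *Mapk3*, -0.49 to 0.050 for *Map2k2*, -0.13 to 0.57 for *Dusp1*, -0.31 to 0.026 for *Dusp4*, -0.010 to 0.14 for *Dusp6* and -0.027 to 0.077 for *Spry4*. It was -0.20 to 0.022 for *Axl*, -0.20 to 0.26 for *Rap1b*, -0.12 to 0.82 for *Shoc2*, -0.050 to 0.23 for *Pebp1*, -0.14 to 0.12 for *Ccnd1* and -0.19 to 0.098 for *Mapkapk2*. The filter on mean FPKM left no value for *Spry4*. Depth is unknown, so what it limits cannot be stated.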
